A study of Mus musculus with 33 samples.

Results

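Chemokines are small secreted proteins that draw leukocytes along a gradient, and they act through G protein-coupled receptors on the cells they attract. The genes described here are 39 chemokine ligand and receptor genes, 25 ligands and 14 receptors, taken by name from the 53735 genes of each table, and none of the 39 names was missing. They were followed in 3 populations sorted from KCKO tumours, a mouse pancreatic ductal adenocarcinoma line grown in the pancreatic tail of C57BL/6 mice with metal markers placed beside the tumour for targeting. The populations were CD8 T cells (CD8), inflammatory monocytes (IM) and tumour-associated macrophages (TAM), 33 libraries in 12 groups. The gate was CD45+CD8+ for CD8, CD45+CD11b+Ly6C+Ly6G- for IM, and for TAM CD45+CD11b+ with moderate Ly6C, no Ly6G and F4/80.

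In each population 4 groups were compared. The unirradiated group (unIrr) received no radiation. The SBRT group received stereotactic body radiotherapy, 4 fractions of 6 Gy from day 6 to day 9 after implantation. The IL-12 group was unirradiated and received microspheres (2 mg of beads) loaded with 0.5 µg of recombinant interleukin 12, injected into the tumour on day 10. The combination group received both. IM and CD8 had 3 libraries in every group, while TAM had 2 libraries in every group except IL-12, which had 3. The labels name empty microspheres as a control without tying them to a group, and they do not give the harvest day, the age or sex of the mice, or whether each library came from its own animal, so p-values reflect only how far these libraries spread, which may be technical.

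Monocytes leave the bone marrow through CCR2, which binds CCL2, CCL7 and CCL12, and lose CCR2 as they mature, while CX3CR1, the receptor of fractalkine, marks patrolling monocytes and many tissue macrophages. CXCL9, CXCL10 and CXCL11 are induced by interferon gamma, a product of T and natural killer cells under IL-12, and draw activated T cells through CXCR3. Cxcl11 is annotated as a polymorphic pseudogene in the mouse reference and makes no functional protein in C57BL/6 mice, so its values here are those of a transcript. CXCL1, CXCL2 and CXCL3 draw neutrophils through CXCR2 and are classic targets of NF-kappaB.

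The promoters of the last family show the shared element most plainly, and they are printed because these neighbouring genes passed the test of a response in neither myeloid population (values further on). The stretch from base 110 to base 31 before the RefSeq start is given for each, on the plus strand of build GRCm38.p6, at chr5:90891135-90891214 for Cxcl1, chr5:90903789-90903868 for Cxcl2 and chr5:90785991-90786070 for Cxcl3. Capitals mark the kappaB motif, searched on both strands as GGGA, any base, then TTTCC.
Cxcl1: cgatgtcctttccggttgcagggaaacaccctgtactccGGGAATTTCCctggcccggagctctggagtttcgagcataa
Cxcl2: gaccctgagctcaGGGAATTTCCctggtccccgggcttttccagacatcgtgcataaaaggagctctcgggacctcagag
Cxcl3: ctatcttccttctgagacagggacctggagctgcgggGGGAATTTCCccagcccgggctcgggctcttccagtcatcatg

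Promoters in the RefSeq table were matched for 31 of the 39 members. In the 250 bases before the start, the kappaB motif stood in 4 of these 31 (the 3 above and Ccr3, 179 bases before its start) and in 0.356% of 32851 promoters. Its first base lay 71 bases before the start of Cxcl1, 97 before that of Cxcl2 and 73 before that of Cxcl3. Only the letters given above were searched. A window without a match, such as that of Cxcl10, can hold kappaB sites of other letters. The core of the interferon-stimulated response element, searched as GAAA, any 2 bases, then GAAA, stood in Cxcl10 and Cxcl14 and in 2.98% of all promoters. In Cxcl10 it lay 213 bases before the start, and the whole window (chr5:92348890-92349139, minus strand) is shown with that motif in capitals, because Cxcl10 had the highest level of the CXCR3 ligands.
Cxcl10: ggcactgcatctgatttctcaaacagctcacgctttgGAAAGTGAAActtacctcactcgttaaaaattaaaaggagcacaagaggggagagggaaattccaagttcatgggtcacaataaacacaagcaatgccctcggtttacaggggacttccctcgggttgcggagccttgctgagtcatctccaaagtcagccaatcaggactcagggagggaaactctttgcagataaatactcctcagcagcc
The interferon gamma-activated site, searched as TTCNNNGAA, stood in Ccl17, Ccr6 and Cxcl14 and in 7.02% of all promoters. Pf4, the member called most often, held none of the 3 motifs in its window (chr5:90772185-90772434, plus strand), which is shown for comparison and therefore has no capitals.
Pf4: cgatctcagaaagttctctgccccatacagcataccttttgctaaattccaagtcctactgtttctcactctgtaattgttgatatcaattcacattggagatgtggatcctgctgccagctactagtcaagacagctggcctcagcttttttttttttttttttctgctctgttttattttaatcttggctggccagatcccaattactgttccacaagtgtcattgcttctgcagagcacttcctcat
A match of letters is a description of the window, not evidence of a bound factor.

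Levels are the authors' mean normalised count over all libraries of a population, and the tables hold no value for a single library, so no level is given per group and no spread of levels can be shown. To compare genes, each level was given per 1000000 units of the summed level of its population (level per 1000000, LPM) and, between genes, also per kilobase of exon (LPKM). The populations were normalised separately, which limits comparisons between them. In TAM the highest members were Ccl8 at 8364 LPKM, Ccl4 at 4805 and Ccl7 at 2251, all ligands that attract monocytes or other leukocytes. In IM they were Ccl4 at 2834, Ccl6 at 1516 and Cxcl2 at 1494. In CD8 the order was Ccl5 at 2245, Ccl4 at 1824 and Ccl3 at 852, ligands that cytotoxic T cells release, followed by the receptor Cxcr6 at 643.

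Ligands and receptors were spread differently. The summed level of the 25 ligands was 8372 LPM in IM, 14434 in TAM and 2490 in CD8, and that of the 14 receptors was 2349, 1669 and 1067. TAM held the highest level of 15 ligands and IM of 8, while CD8 led only for Ccl5 and for Xcl1, which encodes lymphotactin, a product of T and natural killer cells that attracts cross-presenting dendritic cells. Of the receptors, CD8 led for 6, Ccr6, Ccr8, Ccr9, Cxcr3, Cxcr5 and Cxcr6, and IM and TAM for 4 each. Ccr2 was at 267 LPKM in IM, 68.1 in TAM and 15.9 in CD8, and Cxcr6 at 643 in CD8 against 4.38 in IM and 3.78 in TAM. With another scaling of the populations, by the median ratio over shared genes, 1 ligand (Cxcl11) passed from IM to TAM and the other orders of the highest population were as before. A level of at least 50 was reached by 31 members in IM, 29 in TAM and 27 in CD8. Under 10 were Cxcl13 and Ccr6 in IM, Ccr6 in TAM, and Cxcl12, Cxcl13, Cxcl14 and Ackr3 in CD8, where a response could hardly be seen.

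**Figure D1:**
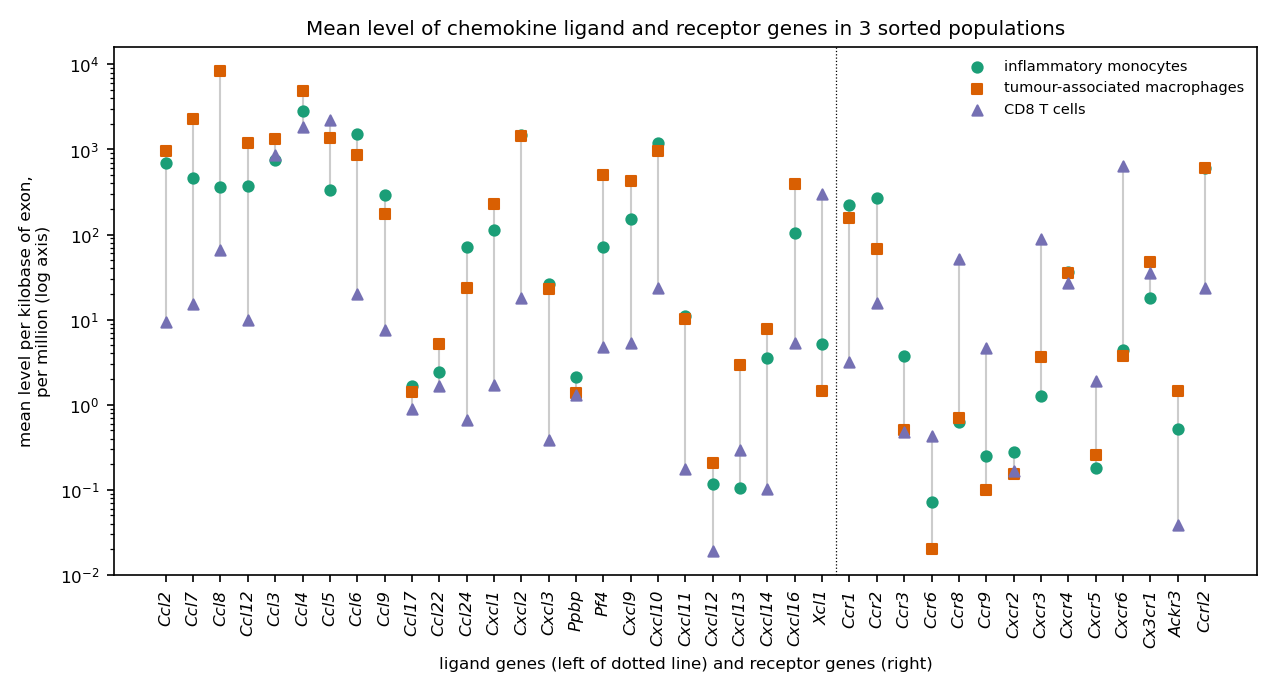
Mean level of each chemokine ligand gene (left of the dotted line) and receptor gene (right) as level per kilobase of exon per 1000000 units of the population's summed level (LPKM), on a log axis, with 1 mark per population. Ccl8 in TAM is the highest mark at 8364, and Xcl1, Cxcr3 and Cxcr6 are far higher in CD8 T cells than in both myeloid populations.

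Defining markers were measured for each gate. T cell markers (11 genes) summed to 7303 LPM in CD8 against 50.2 in IM and 47.1 in TAM, macrophage markers (9 genes) to 29116 in TAM, 7815 in IM and 246 in CD8, and monocyte markers (7 genes) to 4244 in IM, 699 in TAM and 862 in CD8. None of these 27 genes was at 0 in any population. Genes encoded in the mitochondrial genome (9 genes), which reflect RNA quality, had medians of -0.32, -0.27 and -0.32 in IM after SBRT, IL-12 and the combination, and of -0.28, -0.32 and -0.08 in TAM, with medians between -0.05 and 0.00 in CD8. None passed the deposited DESeq2 test (1, 2 and 3 in IM and 0 in TAM and CD8 at an unadjusted p below 0.05), and their part in the results was not tested.

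Responses are the log2 fold changes of the authors' deposited tables, treated over unirradiated, from 1 DESeq2 Wald test per gene. They were shrunken towards 0, which understates changes of low genes. The value after ± is a standard error, computed as the fold change over its Wald statistic, and a gene is said to rise or fall only where the deposited adjusted p (Benjamini-Hochberg over the genes kept by a filter on level) was below 0.05. Of the 351 pairs of member and comparison, 313 had an adjusted p. Of these, 25 pairs passed, 24 lower and 1 higher. They belonged to 12 members, 8 ligands and 4 receptors, and 27 members passed nowhere. In these bulk samples, fewer cells of a type in the gate and less RNA per cell cannot be told apart.

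In IM, no member passed after SBRT in the deposited DESeq2 table (37 tested, 11 at an unadjusted p below 0.05), where 0.519% of all genes passed. After IL-12, 5 of 37 fell (3 ligands and 2 receptors) where 3.24% of all genes passed and 1.33% fell. After the combination 6 of 37 fell (4 ligands and 2 receptors) where 6.72% passed and 3.03% fell. At an unadjusted p below 0.05 there were 13 members after IL-12 and 15 after the combination. The median member was at -0.00, -0.14 and -0.09 after the 3 treatments, beside -0.02, -0.02 and -0.02 over all genes tested, and the 13 receptors tested after IL-12 had a median of -0.21 with 3 above 0.

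In TAM, 3 of 38 members fell after SBRT (1 ligand and 2 receptors) where 2.08% of all genes passed and 1.15% fell, and 3 ligands of 38 members fell after IL-12 where 0.935% passed and 0.284% fell. After the combination 1 ligand of 37 members rose, and 2 ligands and 1 receptor fell, where 4.21% passed, 2.24% rose and 1.97% fell. In CD8 no member passed after SBRT (32 tested, 7 at an unadjusted p below 0.05) or after IL-12 (27 tested, 6 at an unadjusted p below 0.05) in the deposited DESeq2 tables, where 0.471% and 2.52% of all genes passed. After the combination 4 of 30 fell, 3 ligands and 1 receptor, where 7.47% of all genes passed and 2.96% fell.

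**Figure D2:**
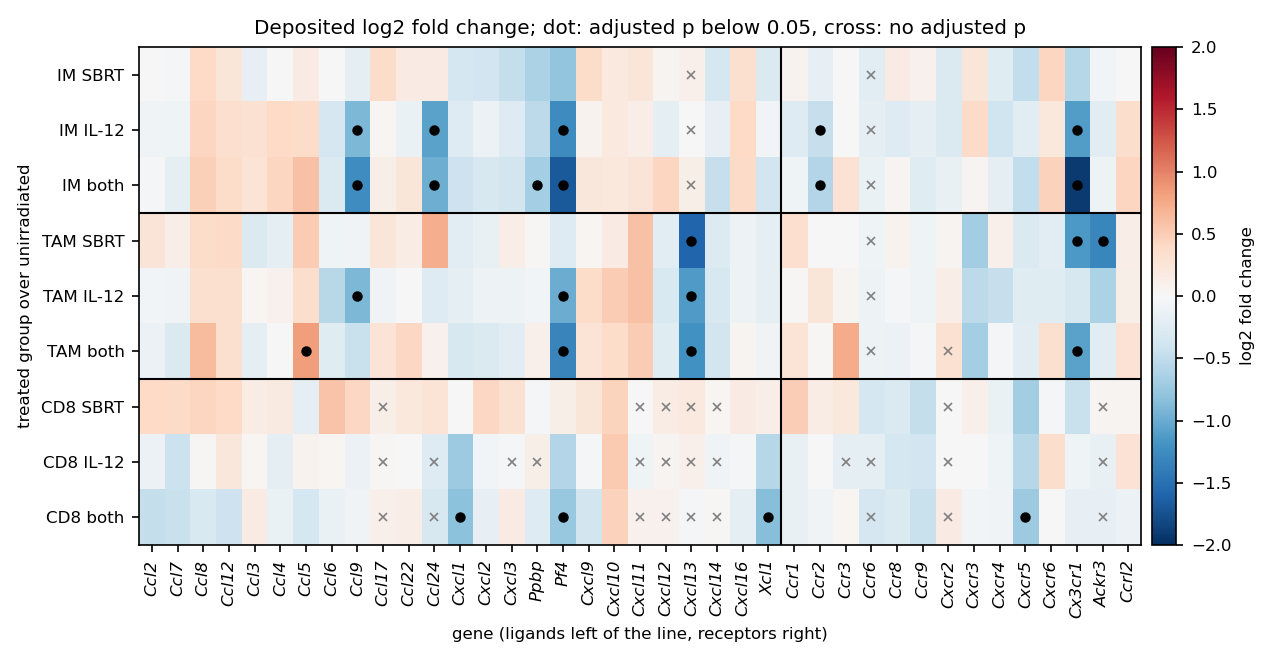
Deposited log2 fold change of each member (columns, ligands left of the line) in the 9 comparisons with the unirradiated group (rows; both = SBRT plus IL-12), with blue lower and red higher. Dots mark an adjusted p below 0.05 and crosses pairs with no adjusted p: 24 of the 25 dots are on blue cells, and Ccl5 in TAM after the combination is the exception.

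The ligand genes Ccl2, Ccl7, Ccl8 and Ccl12 lie in a cluster on chromosome 11 (82035571 to 82116799, GRCm38) and none passed in any comparison. In the deposited tables the 4 genes lay between -0.20 and 0.48 in IM and between -0.30 and 0.64 in TAM. Ccl8, the most abundant member in TAM, was nearest to the threshold at 0.64 ± 0.22 after the combination (adjusted p = 0.064). Ccl2, the main ligand of CCR2, was at -0.04 ± 0.15 in IM and -0.11 ± 0.21 in TAM after the combination. In CD8, where these genes were at levels of 136.5 to 871.7 against 4939.7 to 123342 in the myeloid populations, the 4 values lay between 0.38 and 0.43 after SBRT and between -0.48 and -0.30 after the combination.

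Ccl3, Ccl4, Ccl5, Ccl6 and Ccl9 lie in a second cluster on chromosome 11 (83525778 to 83664683), and here neighbours differed. Ccl9, a myeloid ligand of CCR1, fell in IM by 0.91 after IL-12 (-0.91 ± 0.14, adjusted p = 2.4e-08) and by 1.24 after the combination (-1.24 ± 0.14, adjusted p = 2.0e-16), and was at -0.18 ± 0.14 after SBRT. In TAM it fell after IL-12 (-0.90 ± 0.18, adjusted p = 0.00036), while the combination gave -0.44 ± 0.19 (adjusted p = 0.21). Ccl6, the neighbour of Ccl9, passed nowhere and was at -0.33 ± 0.16 and -0.29 ± 0.16 in IM and at -0.56 ± 0.19 (adjusted p = 0.21) in TAM after IL-12.

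Ccl5, a T cell and monocyte attractant made by T cells and by interferon-stimulated myeloid cells, was the member that rose. In TAM it was at 0.51 ± 0.21 after SBRT, 0.35 ± 0.19 after IL-12 and 0.84 ± 0.21 after the combination (adjusted p = 0.0048), a 1.79-fold increase. Beside it, T cell markers in TAM had a median of 0.11 and none of 11 passed the deposited DESeq2 test (1 at an unadjusted p below 0.05). The other-cell markers Jchain, Col1a1 and Dcn fell in the same comparison, and the endothelial marker Vwf rose. Their part in the results of the combination in TAM was not tested. In IM Ccl5 was at 0.58 ± 0.23 after the combination (adjusted p = 0.12) and in CD8, where its LPM was highest, at -0.36 ± 0.18 (adjusted p = 0.25). Ccl3 and Ccl4 passed in no population, with values from -0.29 to 0.43.

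Ccl24, eotaxin-2, a CCR3 ligand of alternatively activated macrophages, fell in IM after IL-12 (-1.08 ± 0.20, adjusted p = 6.2e-06) and after the combination (-0.98 ± 0.21, adjusted p = 0.00016) and was at 0.16 ± 0.29 after SBRT. In TAM it passed nowhere and was at 0.73 ± 0.28 after SBRT (adjusted p = 0.19). Ccl17 and Ccl22, the CCR4 ligands that draw regulatory T cells, passed nowhere. Their levels were low, 22.6 and 150 in IM and 20.9 and 350 in TAM.

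The neutrophil-attracting genes Cxcl1, Cxcl2 and Cxcl3, at levels of 2327 to 85734 there, passed in neither myeloid population. In IM their 9 values were all below 0, from -0.48 to -0.12, and in TAM they ran from -0.32 to 0.14. Cxcl1 fell in CD8 after the combination (-0.81 ± 0.23, adjusted p = 0.0099) at a level of 82.4, where IL-12 alone gave -0.73 ± 0.23 (adjusted p = 0.057) and SBRT 0.01 ± 0.14. Ppbp, whose product is stored in platelets, fell in IM after the combination (-0.67 ± 0.21, adjusted p = 0.023) at a level of 61.4.

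Pf4 encodes platelet factor 4 (CXCL4), known from platelet granules and also expressed by macrophages. It passed in 5 comparisons, more than any other member, and fell in all 3 populations after the combination, by 1.68 in IM (-1.68 ± 0.22, adjusted p = 6.6e-12), by 1.33 in TAM (-1.33 ± 0.25, adjusted p = 1.8e-05) and by 0.76 in CD8 (-0.76 ± 0.23, adjusted p = 0.018). It also fell after IL-12 in IM (-1.26 ± 0.23, adjusted p = 5.1e-06) and in TAM (-1.0 ± 0.24, adjusted p = 0.0067). After SBRT it was at -0.80 ± 0.23 in IM (adjusted p = 0.091) and -0.26 ± 0.26 in TAM. Its level was 10463 in TAM, 1378 in IM and 89.0 in CD8.

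Platelet markers were measured beside Pf4 and Ppbp. The 6 markers (Itga2b, Gp1bb, Gp9, Gp6, Treml1 and Tubb1) summed to 5.09 LPM in IM, 2.89 in TAM and 1.95 in CD8. None passed in any of the 9 deposited DESeq2 comparisons (1 at an unadjusted p below 0.05, in CD8 after SBRT), and their median after the combination was -0.05 in IM and 0.06 in TAM. Those with an adjusted p were 4 to 6 in IM, 5 in TAM and only 1 in CD8. In CD8, 4 of the 6 were under a level of 10, so a change could hardly be seen there. Beside Pf4 and Cxcl1 in CD8, the 9 macrophage markers had a median of -0.49 after the combination and none passed, with 7 at an unadjusted p below 0.05. The fibroblast marker Col1a2 and the endothelial markers Pecam1 and Kdr fell in CD8 after the combination, while Gzma (1.07) and Kit (0.69), from the natural killer and mast cell lists, rose. The 9 genes of dissociation stress had a median of -0.28 there, with none passing and 6 at an unadjusted p below 0.05. Their part in the falls in CD8 was not tested. With the Wald statistics rescaled to an empirical null, the calls of Cxcl1, Pf4, Xcl1 and Cxcr5 in CD8 (adjusted p = 0.284, 0.359, 0.140 and 0.491) and of Ppbp in IM (adjusted p = 0.217) were lost.

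The CXCR3 ligands Cxcl9, Cxcl10 and Cxcl11, a cluster on chromosome 5 (92321347 to 92365485), passed in no comparison. In IM after the combination Cxcl9 was at 0.22 ± 0.19, Cxcl10 at 0.22 ± 0.21 and Cxcl11 at 0.25 ± 0.23, with 95% intervals from -0.16 to 0.61, -0.19 to 0.62 and -0.19 to 0.70. In TAM the 9 values were all above 0, from 0.04 to 0.59. The highest for Cxcl10 in TAM was 0.51 ± 0.21 after IL-12, with a 95% interval from 0.10 to 0.92 and an adjusted p of 0.45. In CD8, where its level was 1369 against 71063 in IM, Cxcl10 was at 0.44 ± 0.20, 0.53 ± 0.20 and 0.47 ± 0.20 after SBRT, IL-12 and both (adjusted p = 0.36, 0.13 and 0.13). Upper bounds for Cxcl9 and Cxcl10 stayed below 1 in every comparison, and those for Cxcl11 in TAM ran from 0.99 to 1.07. These are intervals of shrunken values and do not bound the change before shrinkage. Cxcl11 shares 41.7% of its exon length with the antisense gene Gm2673, and the library kit did not mark strand.

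Some regulators of these genes did change. Of 13 interferon and NF-kappaB regulators, 1, 3 and 2 rose in IM after SBRT, IL-12 and the combination, and 1 fell after the combination. Of all genes, 0.519%, 3.24% and 6.72% passed there in either direction. In TAM 2, 3 and 4 rose and none fell, where 2.08%, 0.935% and 4.21% of all genes passed. Socs1, an interferon-induced inhibitor of cytokine signalling, rose in all 6 myeloid comparisons, by 0.63 after SBRT in IM and in TAM and by more after the combination, an order not tested (1.10 ± 0.15 in IM, adjusted p = 5.9e-11, and 0.89 ± 0.19 in TAM, adjusted p = 0.0002). Stat2, a part of the interferon-activated transcription complex, rose in TAM after IL-12 (0.60 ± 0.13, adjusted p = 0.001), after SBRT (0.51 ± 0.14, adjusted p = 0.019) and after the combination (0.64 ± 0.14, adjusted p = 0.00039). Stat2 also rose in IM after IL-12. Irf7, an interferon-induced transcription factor, rose after IL-12 in IM (0.44 ± 0.12, adjusted p = 0.012) and in TAM (0.89 ± 0.21, adjusted p = 0.0051). In TAM after SBRT it was at 0.66 ± 0.22 (adjusted p = 0.095). Irf7 also passed after the combination in both myeloid populations, and in TAM it rose there. In CD8 none passed after SBRT or the combination (0 and 2 at an unadjusted p below 0.05, deposited DESeq2 test), and Rel, an NF-kappaB subunit, fell after IL-12 (-0.51 ± 0.15, adjusted p = 0.031).

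**Figure D3:**
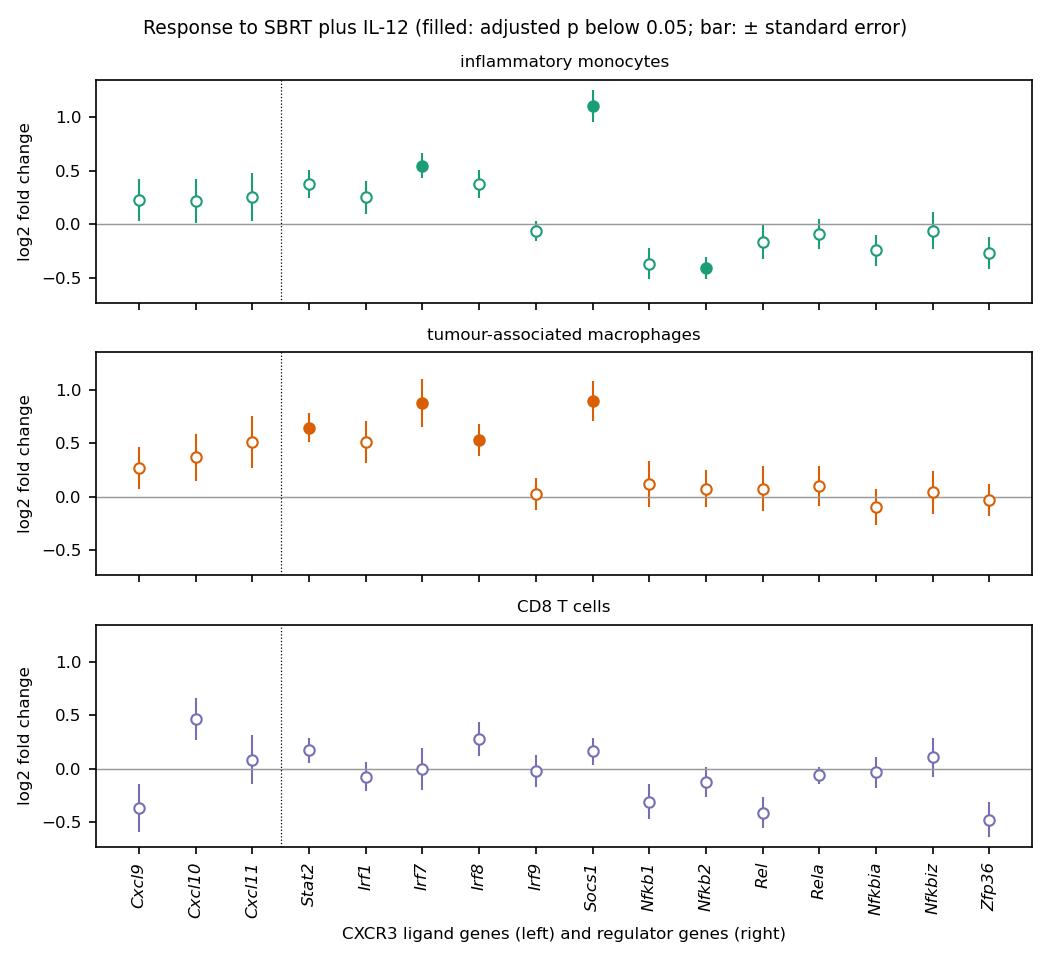
Log2 fold change after SBRT plus IL-12 (± standard error) of the 3 CXCR3 ligand genes (left of the dotted line) and of 13 regulators of chemokine genes, 1 panel per population, filled where the adjusted p was below 0.05. Socs1 stands highest in both myeloid panels at 1.10 and 0.89, while no ligand is filled.

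Among the other CXC and XC ligands, Cxcl13, the B cell attractant that binds CXCR5, fell in TAM after each treatment, by 1.59 after SBRT (-1.59 ± 0.23, adjusted p = 3.1e-09), 1.14 after IL-12 (-1.14 ± 0.30, adjusted p = 0.027) and 1.22 after the combination (-1.22 ± 0.31, adjusted p = 0.0046). Its level in TAM was 98.0, the lowest of the members called there. After SBRT in TAM, 2 of 5 tested B and plasma cell markers (Cd79b and Jchain), 1 of 11 T cell markers (Cd4) and the fibroblast marker Col1a1 (-1.47) fell too, and their part in the result was not tested. Xcl1 fell in CD8 after the combination (-0.85 ± 0.21, adjusted p = 0.0018) and was at -0.57 ± 0.21 after IL-12 (adjusted p = 0.13) and 0.13 ± 0.21 after SBRT. It shares 18.7% of its exon length with Gm20743, whose reads cannot be told apart without strand. Cxcl14 and Cxcl16, the ligand of CXCR6, passed nowhere, and Cxcl12 stayed under a level of 50 in all 3 populations.

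Of the receptors, Cx3cr1 gave the largest response of any member. In IM it was at -0.57 ± 0.18 after SBRT (adjusted p = 0.12), fell by 1.12 after IL-12 (-1.12 ± 0.18, adjusted p = 4.6e-08) and by 1.92 after the combination (-1.92 ± 0.17, adjusted p = 3.0e-25), to 0.264 times the unirradiated level. In TAM it fell after SBRT (-1.15 ± 0.24, adjusted p = 0.00051) and after the combination (-1.07 ± 0.24, adjusted p = 0.0012) and was at -0.31 ± 0.21 after IL-12 (adjusted p = 0.97). In CD8, at a level of 4113, it was at -0.45, -0.09 and -0.17 and passed nowhere.

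Ccr2, the receptor by which monocytes enter tissue and the receptor with the highest raw level in IM (48376), fell less, by 0.46 after IL-12 (-0.46 ± 0.11, adjusted p = 0.0023) and by 0.58 after the combination (-0.58 ± 0.11, adjusted p = 1.6e-05). In TAM and CD8 Ccr2 lay between -0.07 and 0.24 and passed nowhere. The monocyte markers did not share 1 direction in IM after the combination: Ly6c2 (1.10) and Ly6c1 (1.16) rose, as did Plac8 (0.44), while Vcan (-1.23), F13a1 (-1.03) and Chil3 (-0.98) fell. Of the 9 macrophage markers in IM, C1qa, C1qb and C1qc rose and Mrc1 fell in that comparison. Of 7 conventional dendritic cell markers, Flt3, Clec9a, Cd209a and Batf3 passed there, 2 higher and 2 lower. After IL-12 in IM, Flt3 and Cd209a fell. The part of such shifts in the falls of Ccr2, Cx3cr1, Ccl9, Ccl24 and Pf4 was not tested.

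Ackr3, an atypical receptor that takes up CXCL12 without G protein signalling, fell in TAM after SBRT (-1.30 ± 0.22, adjusted p = 2.0e-06) at a level of 140. It was at -0.63 ± 0.27 after IL-12 and -0.21 ± 0.32 after the combination. In TAM after SBRT, fibroblast markers had a median of -0.42 (Col1a1 fell), epithelial and tumour markers of -0.63 (none passed) and endothelial markers of 0.02. Their part in the fall of Ackr3 was not tested. The other atypical receptor, Ccrl2, which binds chemerin, was at 0.43 ± 0.15 in IM after the combination (adjusted p = 0.066). Cxcr5, the receptor of CXCL13, fell in CD8 after the combination (-0.72 ± 0.25, adjusted p = 0.045, or 0.0925 when adjusted over all genes with a p), and the 5 tested B and plasma cell markers in CD8 had a median of -0.27 with none passing the deposited DESeq2 test (2 at an unadjusted p below 0.05). Cxcr3 in CD8, at a level of 3928, lay at 0.11, -0.01 and -0.05, and Cxcr6, at 32064, at -0.04, 0.35 and -0.01, with standard errors of 0.17 and 0.14. Ccr3, an eosinophil receptor, was at 0.74 ± 0.24 in TAM after the combination (adjusted p = 0.057) at a level of 47.3, beside 2 tested eosinophil markers with a median of 0.08.

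**Figure D4:**
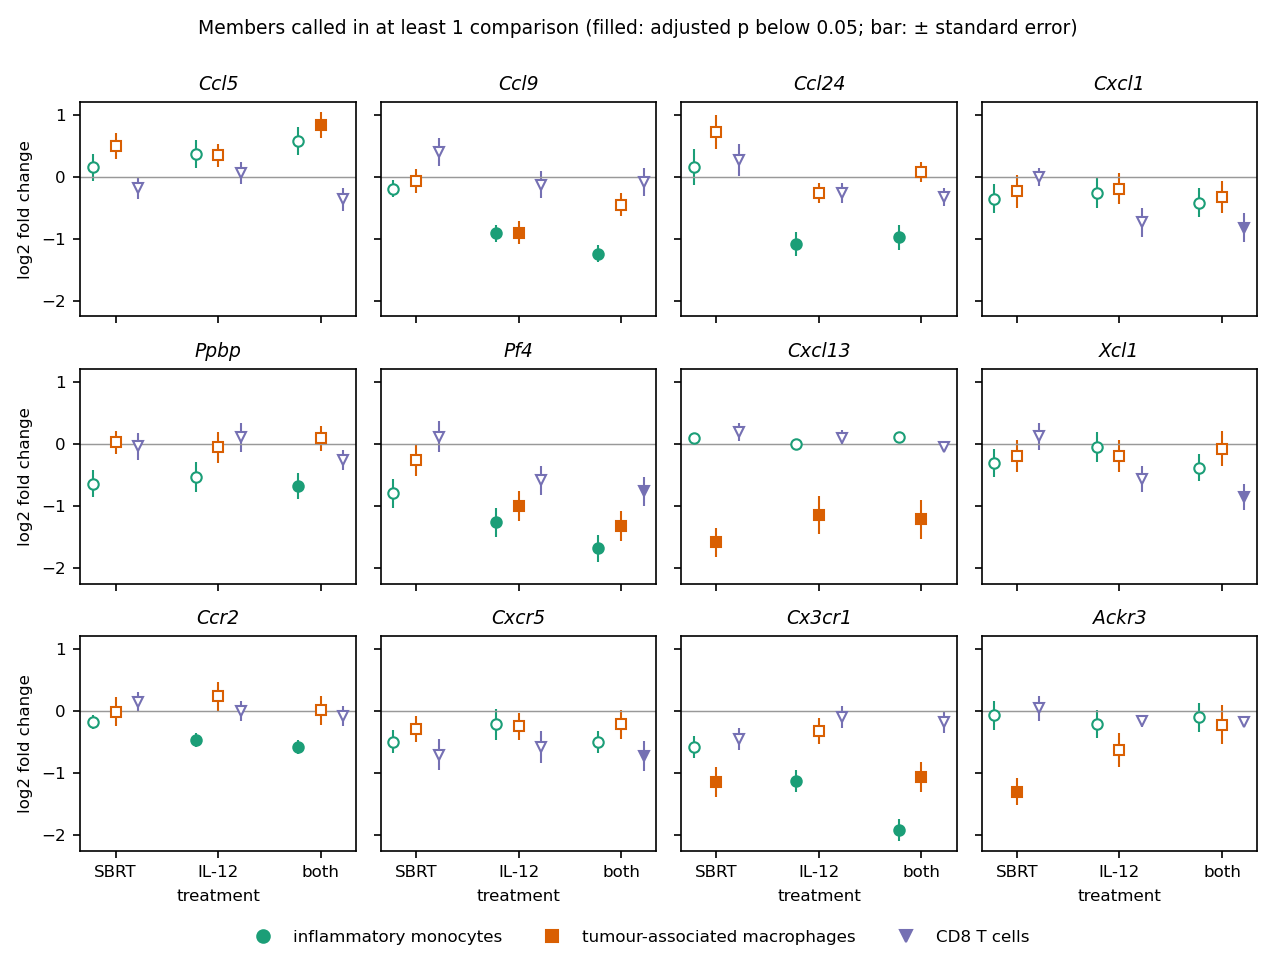
Log2 fold change (± standard error) of the 12 members that passed in at least 1 comparison, by treatment (both = SBRT plus IL-12), with circles for inflammatory monocytes, squares for tumour-associated macrophages and triangles for CD8 T cells, filled where the adjusted p was below 0.05. Pf4 is filled in all 3 populations after both treatments, Cx3cr1 reaches -1.92 in IM, and Cxcl13 is filled in TAM after each treatment.

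Members measured at a level of at least 50 that passed in none of a population's comparisons were 25 in IM: Ccl2, Ccl3, Ccl4, Ccl5, Ccl6, Ccl7, Ccl8, Ccl12, Ccl22, Cxcl1, Cxcl2, Cxcl3, Cxcl9, Cxcl10, Cxcl11, Cxcl14, Cxcl16, Xcl1, Ccr1, Ccr3, Ccr9, Ccrl2, Cxcr3, Cxcr4 and Cxcr6. In TAM they were 23, the same names without Ccl5, Xcl1, Ccr3 and Ccr9 and with Ccl24 and Ccr2. In CD8 they were 23: Ccl2, Ccl3, Ccl4, Ccl5, Ccl6, Ccl7, Ccl8, Ccl9, Ccl12, Ccl22, Cxcl2, Cxcl9, Cxcl10, Cxcl16, Ccr1, Ccr2, Ccr8, Ccr9, Ccrl2, Cxcr3, Cxcr4, Cxcr6 and Cx3cr1. A p that misses the threshold does not show that a level was the same.

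The 3 tables of a population share their unirradiated libraries, so the treatments were compared by a test of the difference between fold changes, with Benjamini-Hochberg adjustment over all genes. In IM the combination lowered Ccl9 more than SBRT did, by a difference of -1.05 ± 0.20 (adjusted p = 0.00014), and Cx3cr1 by -1.35 ± 0.25 (adjusted p = 0.00011), where 0.195% of all genes passed. No member passed for the combination minus IL-12, SBRT minus IL-12 or the interaction in IM (2, 4 and 0 members at an unadjusted p below 0.05), where 0%, 0.0213% and 0.00305% of all genes passed. None passed in TAM for the combination minus SBRT, the combination minus IL-12, SBRT minus IL-12 or the interaction (4, 2, 5 and 3 members at an unadjusted p below 0.05), where 0.0216%, 0.0988%, 0.127% and 0.0154% passed. The same 4 tests gave none in CD8 (9, 1, 5 and 3 members at an unadjusted p below 0.05), where 0.0815%, 0.00302%, 0.0272% and 0.00604% passed.

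This test leaves out the covariance through the shared controls, which makes it conservative where the ± values hold as standard errors. With the variance of the unirradiated group removed, an alternative by group size, Ccl24, Pf4 and Ccr2 joined Ccl9 and Cx3cr1 for the combination minus SBRT in IM, where 1.07% of all genes passed. Cx3cr1 then also differed for the combination minus IL-12 in IM (-0.80, adjusted p = 0.025; 0.0488% of all genes), and Ccl9 and Ccl24 for SBRT minus IL-12 (0.72 and 1.24; 0.323% of all genes). In TAM, Ccl9 (0.83), Ccl24 (0.99) and Cx3cr1 (-0.83) differed for SBRT minus IL-12 (0.605% of all genes). Pf4 (-1.06) and Ccr3 (0.74) differed for the combination minus SBRT (0.0958%), and Ccr3 (0.68) for the combination minus IL-12 (0.686%). Both Ccr3 differences rest on small standard errors after SBRT (0.05) and IL-12 (0.07), against 0.24 after the combination, at a level of 47.3. They restate its value after the combination, which did not pass, and do not show that the treatments differ. Ackr3 (1.71) differed for the interaction (0.0525%). In CD8, Ccl2, Ccl7, Ccl12, Cxcl1, Pf4 and Xcl1 were lower after the combination than after SBRT, with differences from -0.97 to -0.81 (1.39% of all genes). Ccl2, Ccl7 and Ccl12 were far higher in TAM than in CD8, and the 9 macrophage markers in CD8 had a median of 0.22 after SBRT and -0.49 after the combination. Their part in these differences was not tested. Cxcl1 differed in CD8 for SBRT minus IL-12 (0.74, where 0.528% of all genes passed), at a level of 82.4. Its standard errors were 0.14 after SBRT and 0.23 after IL-12. Neither response passed by itself, and the difference rests on the value after IL-12.

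Responses of the populations, which share no library, were compared in the same way. After SBRT, Ackr3 fell more in TAM than in IM (IM minus TAM 1.24 ± 0.32, adjusted p = 0.046; 0.272% of all genes passed). Its level in IM was 46.3, where its response was -0.06 ± 0.23, and it was not tested among genes of at least 50. Cxcl13 in IM and CD8 (levels of 3.2 and 8.8) and Ackr3 in CD8 (3.3) had no adjusted p of their own, and their shrunken responses had standard errors of 0.07, 0.14 and 0.20 after SBRT. Differences that rest on them passed the test, but they restate the fall in TAM and do not show that the populations differ. They were 1.68 ± 0.24 for Cxcl13 in IM minus TAM, and -1.78 ± 0.27 for Cxcl13 and -1.35 ± 0.30 for Ackr3 in TAM minus CD8, where 0.637% of all genes passed. After IL-12, Cx3cr1 fell more in IM than in CD8 (-1.03 ± 0.25, adjusted p = 0.015; 0.492%).

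After the combination, Cx3cr1 (-1.75 ± 0.25, adjusted p = 3.3e-09) and Ccl9 (-1.16 ± 0.26, adjusted p = 0.0016) fell more in IM than in CD8, where 1.95% of all genes passed. Ccl24 fell more in IM than in TAM (-1.06 ± 0.26, adjusted p = 0.012), where 0.927% passed. Ccl5 was higher in TAM than in CD8 by 1.20 ± 0.28 in its response (adjusted p = 0.0022), where 2.42% passed. The differences of Cxcl13 after the combination (1.33 ± 0.32 in IM minus TAM and -1.18 ± 0.31 in TAM minus CD8) passed with the same limit, and the second was lost with a shared standard error (adjusted p = 0.29). No member passed for SBRT in IM minus CD8 or for IL-12 in IM minus TAM and TAM minus CD8 (6, 7 and 5 members at an unadjusted p below 0.05), where 0.0166%, 0.0532% and 0.232% of all genes passed. The fall of Pf4 was not shown to differ between IM and TAM after the combination (-0.36 ± 0.33, adjusted p = 1.0), nor that of Cx3cr1 (-0.85 ± 0.30, adjusted p = 0.21). With a shared standard error Cx3cr1, Ccl9 and Ccr2 also passed there (adjusted p = 0.00091, 0.0011 and 0.023), and Ccl9 passed among genes at a level of at least 50 (adjusted p = 0.039).

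Other genes of the pathway were counted from lists taken from textbook roles, with earlier results of these data known. Of 12 further chemokine genes none passed in any deposited DESeq2 comparison (0 to 2 at an unadjusted p below 0.05 in each, 3 to 8 tested). Of 8 further receptor genes none passed either (0 or 1 at an unadjusted p below 0.05 in each, 2 or 3 tested). Of 32 genes of receptor signalling and desensitisation, 1 rose and 4 fell in IM after the combination (6.72% of all genes passed). After IL-12 in IM, 1 rose and 1 fell (3.24%). In TAM 1 fell after the combination (4.21%). In CD8 2 rose after IL-12 (2.52%), and 1 rose and 1 fell after the combination (7.47%).

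The regulators of G protein signalling, which shorten receptor signals, made up most of these. Rgs1 rose in IM after IL-12 (0.74 ± 0.20, adjusted p = 0.0082) and after the combination (1.08 ± 0.20, adjusted p = 4.2e-06) and in CD8 after IL-12 (0.54 ± 0.16, adjusted p = 0.035) and after the combination (0.60 ± 0.16, adjusted p = 0.0056). Rgs10 fell after the combination in IM (-0.63 ± 0.15, adjusted p = 0.0015), in TAM (-0.72 ± 0.14, adjusted p = 0.00012) and in CD8 (-0.90 ± 0.21, adjusted p = 0.00067), and was at -0.76 ± 0.21 in CD8 after SBRT (adjusted p = 0.052). Rgs18 fell in IM after IL-12 (-0.95 ± 0.20, adjusted p = 0.0003) and after the combination (-0.90 ± 0.20, adjusted p = 0.00041) and was at -0.51 ± 0.20 after SBRT (adjusted p = 0.42), where Grk5, a receptor kinase, was at -0.53 ± 0.19 (adjusted p = 0.30). Grk5 fell in IM after the combination. In CD8 the G protein subunit gene Gng2 rose after IL-12 (0.41 ± 0.11, adjusted p = 0.014), and Plcb3 was at 0.42 ± 0.16 after SBRT (adjusted p = 0.29).

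Of 8 genes that process or present chemokines, Cd44, which binds hyaluronan and carries chemokines on its sugar chains, fell in IM after IL-12 and after the combination (-0.73 ± 0.13, adjusted p = 1.2e-06). Dpp4, a protease that trims chemokines such as CXCL10, fell in CD8 after IL-12 (-0.54 ± 0.15, adjusted p = 0.020), Mmp12 fell in CD8 after the combination (-0.75 ± 0.24, adjusted p = 0.028), and Hs3st1 was at -0.29 ± 0.14 in CD8 after SBRT (adjusted p = 0.42). None of the 8 passed in TAM (1, 2 and 3 at an unadjusted p below 0.05 after SBRT, IL-12 and the combination, deposited DESeq2 test).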

How the data were processed

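RNA of sorted cells was sequenced in 33 libraries of 12 groups from TruSeq RNA V2 libraries on an Illumina HiSeq, per the labels' protocols. The submitters' processing notes name Trimmomatic 0.36, FastQC 0.11.8, STAR 2.6.0c, Subread, featureCounts, Salmon and GRCm38, without their roles. Each of the 9 deposited tables sets 1 treated group against unirradiated libraries of the same population. Per the file headers, they hold the authors' mean normalised signal (the DESeq2 base mean, called level here), a log2 fold change, a Wald statistic (a score without a fixed range) and a p-value with its adjusted p-value. The DESeq2 version and design are not given in the sources used here. The tables hold no values of single libraries, so depth per library is unknown and no count model was fitted again.

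Standard errors were computed as the deposited log2 fold change over the Wald statistic, which is approximate. The 95% intervals came from the normal distribution. Differences between treatments and populations were tested with a two-sided normal test, adjusted over all genes by the Benjamini-Hochberg method, in scripts tested on simulated data (Python 3.11.15, pandas 2.3.3, numpy 2.4.6, SciPy 1.17.1, matplotlib 3.10.9). Exon lengths and positions came from GENCODE M21, which matched 28453 names, and promoters from RefSeq.

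The members and gene lists were chosen with earlier results of these data known. Named were the members called in any comparison or difference, those at a level of at least 50 called in none, and the 3 other pathway genes with the smallest adjusted p in each comparison. Of the pathway lists, 2 genes are not reported here and are left out of their counts. Alternatives were an adjustment over all genes, an empirical null, a threshold of 0.01, a level of at least 50, a shared standard error, removal of the control variance and median-ratio scaling.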

Additional observations from a re-analysis of the deposited data

Results flagged for a closer look

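Each value here is a difference between the responses of 2 populations to the same treatment that passed the normal test of the difference itself, adjusted over all genes. After SBRT the response of Cxcl13 differed by 1.68 (IM minus TAM) and -1.78 (TAM minus CD8), and that of Ackr3 by 1.24 and -1.35. Levels of Cxcl13 were 3.2 in IM and 8.8 in CD8, and levels of Ackr3 46.3 and 3.3, against 98.0 and 140 in TAM. Differences that rest on a level under 10, which are all those of Cxcl13 and that of Ackr3 with CD8, restate the fall in TAM and do not show that the populations differ.

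After IL-12 the response of Cx3cr1 differed by -1.03 (IM minus CD8). After the combination Cx3cr1 differed by -1.75 and Ccl9 by -1.16 (IM minus CD8), Ccl24 by -1.06 and Cxcl13 by 1.33 (IM minus TAM), and Ccl5 by 1.20 and Cxcl13 by -1.18 (TAM minus CD8).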

How the results depend on the processing

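No paired analysis was possible because the deposited tables hold comparisons and no values of single libraries. Leaving out a library was not possible for the same reason. No result reversed under the alternatives run. After the combination in CD8, the 3 ligand calls became 0 with an empirical null, and the 1 receptor call became 0 with an empirical null, with adjustment over all genes with a p and at an adjusted p below 0.01. With the control variance removed, the members that differed became 5, 1 and 2 in IM (combination minus SBRT, combination minus IL-12, SBRT minus IL-12), 2, 1, 3 and 1 in TAM (the same and the interaction) and 6 and 1 in CD8 (combination minus SBRT, SBRT minus IL-12). The TAM counts for the combination minus SBRT and minus IL-12 include Ccr3, with the limit given above. The CD8 count for SBRT minus IL-12 is Cxcl1, also with its limit given above. Among genes at a level of at least 50, the SBRT differences of IM minus TAM and TAM minus CD8 became 0 and 0, since Cxcl13 and Ackr3 were not tested there. With a shared standard error, IL-12 in IM minus CD8 gave 2 members, the combination in IM minus TAM 5 (Ccl9, Ccl24, Ccr2, Cx3cr1 and Cxcl13) and in TAM minus CD8 1. The cause of the other changes was not tested. Of the counts and main values, 108 stayed within their limits and 18 moved. Over all genes, the empirical null left 485 calls of 1254 in IM, 322 of 725 in TAM and 211 of 1129 in CD8 after the combination.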
